A study of Mus musculus with 2 samples.

Results

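The genes described are 9 members of the complement system: the initiating proteases C1ra and C1s1, the convertase components C2 and C4b, the central component C3, the alternative-pathway genes Cfb and Cfp, and the anaphylatoxin receptors C3ar1 and C5ar1. They were taken by symbol from the 31253 genes listed in the deposited matrices, and all 9 were found. Expression was measured in pancreas of Cae-treated mice, captured as single cells on the BD Rhapsody system. The CP+EVs library came from animals given Cae and EVs, and the CP library from animals given Cae without EVs, with 1 library in each group. The series title speaks of extracellular vesicles induced by physical exercise and of chronic pancreatitis, whereas both libraries carry a condition label that reads acute pancreatitis. Mouse strain, age, dosing and animal numbers were not found in the labels. With 1 library a group there is no test and no replicate check, so every difference given compares these libraries and not the treatments.

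Complement is a cascade of plasma and tissue proteins. In the classical pathway C1q binds its target and activates the proteases C1r and C1s, which cleave C4 and C2 into the C3 convertase. C3 cleavage feeds the alternative pathway, in which factor B forms a further convertase that properdin (Cfp) stabilises, and releases C3a, while cleavage of C5 releases C5a. These small fragments, the anaphylatoxins, act on C3ar1 and C5ar1 of myeloid cells, and C5a is a strong neutrophil attractant. Liver is the main source of the plasma proteins, and stromal cells and macrophages also make several of them locally.

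UMIs, or unique molecular identifiers, count captured transcript molecules. Their total was 38532775 over 8845 CP+EVs barcodes and 51652425 over 13507 CP barcodes, and the median barcode had 2884 in CP+EVs and 1417 in CP. Barcodes were placed in a cell class by a gate that asked for UMIs of at least 3 of 8 marker genes and at least 2 more markers than any unrelated class, and a class name means only that this gate was passed. The fibroblast gate took 2354 CP+EVs and 2958 CP barcodes, the mesothelial gate 120 and 96, the macrophage gate 167 and 1061, the monocyte gate 56 and 556, the T gate 474 and 421, and the B gate 892 and 287. In these gates the median barcode held UMIs of 6 or 7 of its 8 markers. The mesothelial gate asked for no margin over fibroblast markers, of which its median barcode held 5 in each library. Whether these were barcodes mixed with fibroblasts was not tested. The neutrophil gate took 22 CP+EVs barcodes and 2830 CP barcodes, and the acinar gate 2790 and 6, so for these gates the levels of the libraries are set side by side without a ratio. No gate took 1651 CP+EVs and 5115 CP barcodes, which is 18.8% and 38.1% of those kept. The libraries share 118 cell barcodes. Levels are UMIs of the gene per 1000000 UMIs of the gate (CPM), with exact Poisson 95% intervals that cover counting error only.

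UMIs of genes of other cell classes were counted in the gates, and whether they came from free RNA or from mixed barcodes was not tested. Fibroblast markers, which lymphocytes lack, stood in the T gate at 7.28% of their whole-library level in CP+EVs and at 8.73% in CP, with none of the 8 at 0. The T gate is therefore given as a background beside each member. That gate itself asks for more T markers than fibroblast markers, which can lower this background. With the gate on markers beyond free RNA, described under processing, C3 in the T gate stood at 340.1 CPM in CP+EVs and 409.6 CPM in CP. Under the main gate it stood at 131 and 160.3 CPM. Comparisons between libraries were made in the 6 gates with at least 50 barcodes in each, and a member was measured where it reached 20 CPM in 1 library and 20 UMIs in both together.

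Before the values, the promoters of the members that carry the source and receptor pattern are shown, so that the stromal and the myeloid members can be read side by side. RefSeq (GRCm38.p6) gave a promoter for 6 members, each 250 bases before to 50 after the start. Capitals mark matches, on either strand, to the searched motifs: GAS (TTCNNNGAA), C/EBP (TTNNGNAA), PU.1 (GAGGAA), and the ISRE and NF-kB consensus motifs. The C3 promoter lies at chr17:57228087-57228386 on the minus strand, that of C1ra at chr6:124512371-124512670 on the plus strand, that of C1s1 at chr6:124542310-124542609 on the minus strand, that of Cfp at chrX:20931506-20931805 on the minus strand, and that of C5ar1 at chr7:16259289-16259588 on the minus strand.
C3: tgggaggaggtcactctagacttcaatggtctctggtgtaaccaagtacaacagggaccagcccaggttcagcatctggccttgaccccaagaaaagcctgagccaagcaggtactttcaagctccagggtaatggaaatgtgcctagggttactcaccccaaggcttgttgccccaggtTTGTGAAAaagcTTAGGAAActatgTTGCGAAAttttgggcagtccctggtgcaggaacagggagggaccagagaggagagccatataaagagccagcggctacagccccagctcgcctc
C1ra: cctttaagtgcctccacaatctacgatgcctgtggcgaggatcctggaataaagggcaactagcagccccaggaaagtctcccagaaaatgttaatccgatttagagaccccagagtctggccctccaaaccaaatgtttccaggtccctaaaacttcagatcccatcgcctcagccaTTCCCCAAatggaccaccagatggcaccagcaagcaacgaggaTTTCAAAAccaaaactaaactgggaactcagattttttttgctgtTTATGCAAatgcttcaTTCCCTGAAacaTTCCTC
C1s1: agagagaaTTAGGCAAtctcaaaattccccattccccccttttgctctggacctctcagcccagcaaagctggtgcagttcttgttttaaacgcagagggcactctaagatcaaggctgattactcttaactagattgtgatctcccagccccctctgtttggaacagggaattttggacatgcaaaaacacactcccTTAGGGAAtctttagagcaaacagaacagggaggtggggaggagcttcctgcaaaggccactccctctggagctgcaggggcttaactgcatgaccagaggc
Cfp: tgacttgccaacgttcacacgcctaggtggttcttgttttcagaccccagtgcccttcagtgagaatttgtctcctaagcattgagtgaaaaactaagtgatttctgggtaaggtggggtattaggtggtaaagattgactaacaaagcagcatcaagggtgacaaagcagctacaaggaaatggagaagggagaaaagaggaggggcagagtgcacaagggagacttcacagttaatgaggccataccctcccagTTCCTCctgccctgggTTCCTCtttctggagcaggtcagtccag
C5ar1: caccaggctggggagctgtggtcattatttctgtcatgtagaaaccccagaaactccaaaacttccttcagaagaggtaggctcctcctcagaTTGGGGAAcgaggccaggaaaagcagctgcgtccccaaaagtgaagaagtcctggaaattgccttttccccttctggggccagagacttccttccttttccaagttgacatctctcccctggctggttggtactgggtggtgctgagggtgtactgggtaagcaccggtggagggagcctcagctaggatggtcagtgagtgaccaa

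C3 held 3 C/EBP matches, which start at -70, -58 and -45 from its start site. C1ra held 3 C/EBP matches, 1 GAS match and 1 PU.1 match, and C1s1 held 2 C/EBP matches. Cfp held 2 PU.1 matches, at 6 and 22, and C5ar1 held 1 C/EBP match, at -157. The window of C3ar1, not printed, held no match. No ISRE or NF-kB match was found in these 6 windows, and no match overlapped another. Of all 32851 promoters in the table, 8.3% held GAS, 0.17% ISRE, 8.46% NF-kB, 40.7% C/EBP and 28.3% PU.1, so a C/EBP match is common. The RefSeq starts of C1ra and C5ar1 lie 216 and 202 bases from the GENCODE vM21 gene starts. A match describes letters only and is no evidence of binding.

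The proteases C1ra and C1s1, neighbours on chromosome 6 at chr6:124512405-124523443 and chr6:124530345-124542359 (mm10, GENCODE vM21), were stromal in both libraries. C1ra stood at 1229.9 CPM (1210.4 to 1249.7) in the CP+EVs fibroblast gate and 1236 CPM (1218 to 1255) in the CP one. In the mesothelial gate C1ra stood at 2586 CPM in CP+EVs and 1694 CPM in CP. The T gate held 60.9 and 70.3 CPM of C1ra, and the macrophage gate 77.6 and 77.8 CPM, in CP+EVs and CP. C1ra was thus nearly equal between the libraries in fibroblasts, at a ratio of CP+EVs over CP of 0.995 (0.973 to 1.02), and higher in CP+EVs in the mesothelial gate, at 1.53 (1.44 to 1.62).

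C1s1, which cleaves C4 and C2, differed the other way. In fibroblasts it stood at 1675 CPM (1652 to 1698) in CP+EVs and 1255 CPM (1236 to 1274) in CP, a ratio of 1.34 (1.31 to 1.36). In the mesothelial gate it stood at 1946 CPM in CP+EVs and 2389 CPM in CP, a ratio of 0.815 (0.768 to 0.864). The partners of the C1 complex therefore did not keep 1 proportion: C1ra UMIs per C1s1 UMI were 0.734 in CP+EVs fibroblasts and 0.985 in CP fibroblasts, but 1.33 in CP+EVs mesothelial barcodes and 0.709 in CP mesothelial barcodes. C1rb and C1s2, close relatives on the same chromosome, held 253 and 235 UMIs over both libraries, and reads of such near copies may have been shared or split in the authors' counting.

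**Figure D1:**
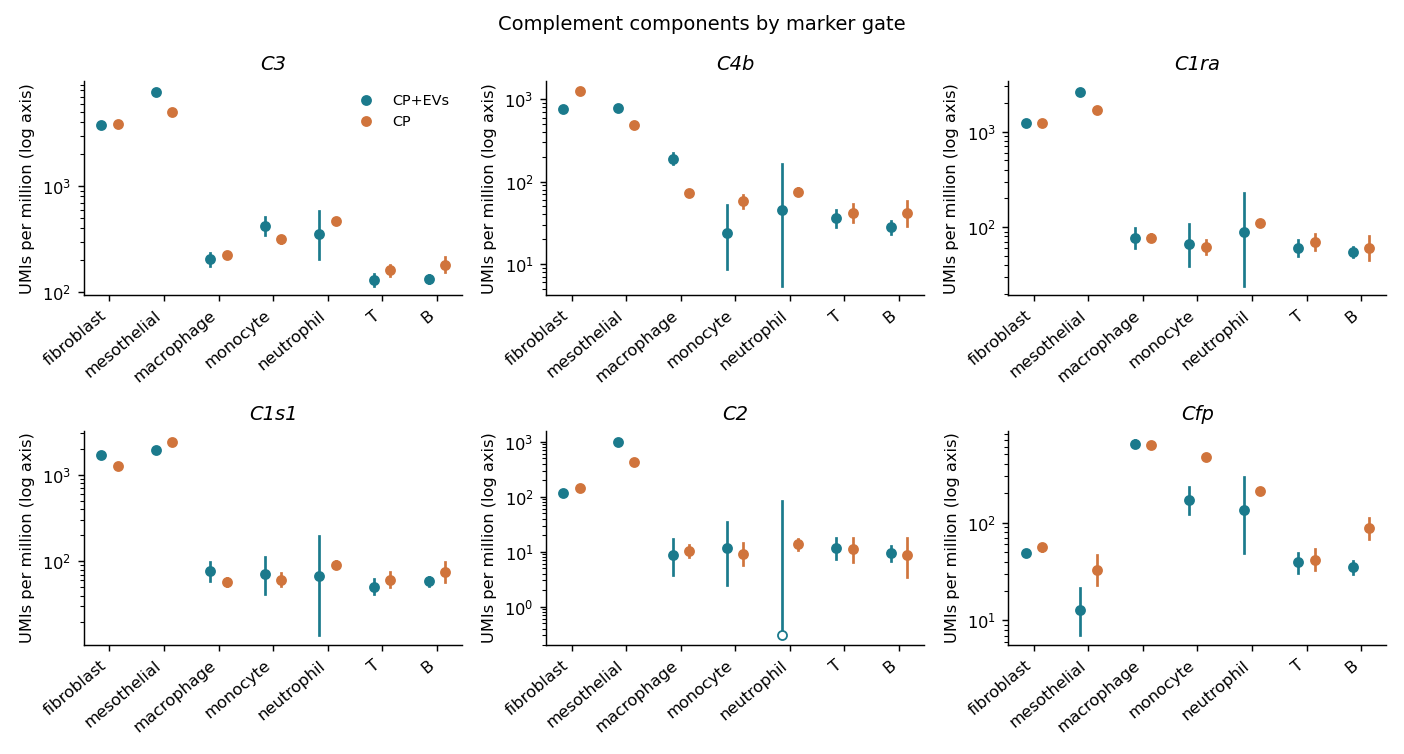
Levels of 6 complement components in 7 marker gates, in CPM on a log axis, with CP+EVs to the left of CP. Points are the level of 1 library, bars are exact Poisson 95% intervals, and an open point marks 0 UMIs, drawn at the bottom of the axis. C3, C4b, C1ra, C1s1 and C2 were highest in the fibroblast and mesothelial gates of both libraries, and Cfp in the macrophage gate.

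C2, the protease of the classical convertase (chr17:34862604-34898265), had its highest level in the mesothelial gate. It stood at 998 CPM (939 to 1059) in CP+EVs mesothelial barcodes and 429 CPM (389 to 472) in CP ones, a ratio of 2.32 (2.08 to 2.61). In fibroblasts it stood at 116 CPM in CP+EVs and 145 CPM in CP, a ratio of 0.801 (0.748 to 0.858). The mesothelial gate, 1.36% of kept CP+EVs barcodes and 0.716% of CP ones, held 35.0% and 10.7% of all C2 UMIs, and the fibroblast gate 45.7% and 49.6%. After thinning each barcode to 1000 UMIs, 53.6% of CP+EVs and 37.2% of CP mesothelial barcodes had a C2 UMI, against 2.19% and 1.97% in the T gate. Without thinning the shares were 90.8% and 67.7% of mesothelial barcodes. Depths of the thinned barcodes had been a median of 7678 and 8051 UMIs in the mesothelial gate and 3596 and 3336 in the T gate. Of the exonic bases of C2, 42.8% are shared on the same strand with the readthrough model Gm20547, which held 0 UMIs in both libraries, and whether shared reads were dropped was not tested.

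C4b, the source of the other convertase subunit (chr17:34728380-34743882), differed most among the components measured in fibroblasts. It stood at 755 CPM (739 to 770.2) in CP+EVs and 1252 CPM (1233 to 1271) in CP, a ratio of 0.603 (0.588 to 0.618), which is short of 2-fold. Thinned to 1000 UMIs, 36.5% of CP+EVs and 56.7% of CP fibroblasts had a C4b UMI, against 4.17% and 3.94% of T barcodes, and without thinning 53.2% and 58.8% of fibroblasts. The fibroblast gates differ in depth, with medians of 3909.5 UMIs in CP+EVs and 1124.5 in CP, and in make-up. Adventitial fibroblasts, gated by Pi16, Dpp4, Anxa3, Sema3c and Ly6c1, numbered 1450 in CP+EVs and 1134 in CP, and remodelling fibroblasts, gated by Tnc, Cthrc1, Postn, Acta2 and Col8a1, numbered 12 and 117. Within adventitial fibroblasts C4b stood at 789.6 and 1402 CPM in CP+EVs and CP, and within the remaining fibroblasts at 581 and 926 CPM. The difference was of like size in adventitial and remaining fibroblasts, with log2 ratios of -0.83 and -0.67. Remodelling fibroblasts held C4b at 114 CPM (49.1 to 224) from 8 UMIs in CP+EVs and 588 CPM (542 to 638) in CP, a wider gap.

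In the mesothelial and macrophage gates C4b was higher in CP+EVs. In the mesothelial gate it stood at 785 CPM (733 to 839) in CP+EVs and 484 CPM (442 to 529) in CP. In the macrophage gate it stood at 190.3 CPM (163 to 221) in CP+EVs and 72.4 CPM (66.0 to 79.2) in CP, a ratio of 2.63 (2.20 to 3.14). The CP macrophage level was above the T gate level of 41.9 CPM by less than 2-fold, and the CP+EVs macrophage level was more than 2-fold above the 36.0 CPM of its T gate. C4b UMIs in CP+EVs macrophages came from a minority of barcodes: per-barcode C4b was 0 CPM at the median, 161 CPM at the upper quartile and 584 CPM at the 90th percentile. With a margin of 1 marker the macrophage log2 ratio of C4b was 0.89, and with a gate on markers beyond free RNA it was 0.73, against 1.40, so the 2-fold call ends. With the latter gate C4b in CP macrophages fell below the T gate, at 73.5 against 138 CPM. In CP+EVs macrophages it stayed above, at 121.6 against 55.1 CPM. Its near copy C4a was not among the genes listed in the deposited matrices, and reads of the pair may not be separable.

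C3, the central component (chr17:57203970-57228136), was the most abundant member. It stood at 7763 CPM (7599 to 7930.2) in CP+EVs mesothelial barcodes and 4986 CPM (4848 to 5126) in CP ones. Fibroblasts held 3778 CPM (3744 to 3813) in CP+EVs and 3889.5 CPM (3857 to 3923) in CP. C3 was thus 1.56-fold (1.503 to 1.61) higher in CP+EVs in the mesothelial gate and nearly equal in fibroblasts, at 0.971 (0.959 to 0.984). Fibroblasts carried 72.3% of C3 UMIs in CP+EVs and 57.1% in CP, and mesothelial barcodes 13.2% and 5.30%. Barcodes in no gate held 5.60% of C3 UMIs in CP+EVs and 32.0% in CP. These shares depend on the gate: on markers beyond free RNA the fibroblast gate took 928 CP+EVs and 1079 CP barcodes and held 14.0% and 5.67% of C3 UMIs, and barcodes in no gate 61.7% and 76.1%. Those fibroblasts were shallower, with medians of 1572 and 879 UMIs against 3909.5 and 1124.5 under the main gate. Their C3 level was similar, at 3873 CPM in CP+EVs and 3828 CPM in CP. Barcodes in no gate then held 2824 and 2633 CPM.

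C3 detection was near complete in the stroma. Thinned to 1000 UMIs, 100% of CP+EVs mesothelial barcodes (96.8 to 100) and 96.2% of CP ones (89.2 to 99.2) had a C3 UMI, and in fibroblasts 85.1% (83.4 to 86.8) and 88.8% (87.1 to 90.3). The T gate gave 13.2% and 13.8%. Without thinning the shares were 100% and 99.0% of mesothelial barcodes and 88.5% and 84.8% of fibroblasts. Thinning left out 8 CP+EVs and 18 CP mesothelial barcodes, 605 and 1329 fibroblasts and 18 and 15 T barcodes that held fewer UMIs. The median depths of those thinned had been 7678 and 8051 UMIs in the mesothelial gate, 5843 and 3641 in fibroblasts and 3596 and 3336 in T barcodes, in CP+EVs and CP.

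C3 was also counted in phagocytes. The neutrophil gate held 358 CPM (204 to 581) in CP+EVs, from 16 UMIs, and 466 CPM (448 to 485) in CP. The monocyte gate held 423 and 316 CPM and the macrophage gate 205 and 225 CPM, in CP+EVs and CP, against 131 and 160.3 CPM in the T gate. With the gate on markers beyond free RNA the order turned for macrophages, at 203 and 260.5 CPM against 340.1 and 409.6 CPM in the T gate, and for CP monocytes, at 391 CPM, but not for CP+EVs monocytes, at 562 CPM. C3 UMIs per C1s1 UMI were also counted. In CP they were 5.11 (4.64 to 5.64) in neutrophils, 5.19 (4.32 to 6.27) in monocytes and 3.93 (3.50 to 4.41) in macrophages, against 3.10 (3.05 to 3.15) in fibroblasts, 2.09 (1.99 to 2.19) in mesothelial barcodes and 2.63 (2.08 to 3.34) in T barcodes. In CP+EVs they were 5.33 (1.53 to 28.6) in neutrophils, 5.94 (3.59 to 10.4) in monocytes and 2.67 (2.02 to 3.57) in macrophages, against 2.26 (2.22 to 2.29) in fibroblasts, 3.99 (3.80 to 4.18) in mesothelial barcodes and 2.57 (2.02 to 3.29) in T barcodes. In CP the intervals of all 3 phagocyte gates lay above those of fibroblasts, mesothelial and T barcodes. In CP+EVs the monocyte interval lay above those of fibroblasts and T barcodes and overlaps that of mesothelial barcodes, and the neutrophil and macrophage intervals overlap those of fibroblasts and T barcodes. The part of free RNA in the C3 of these gates was not tested.

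**Figure D2:**
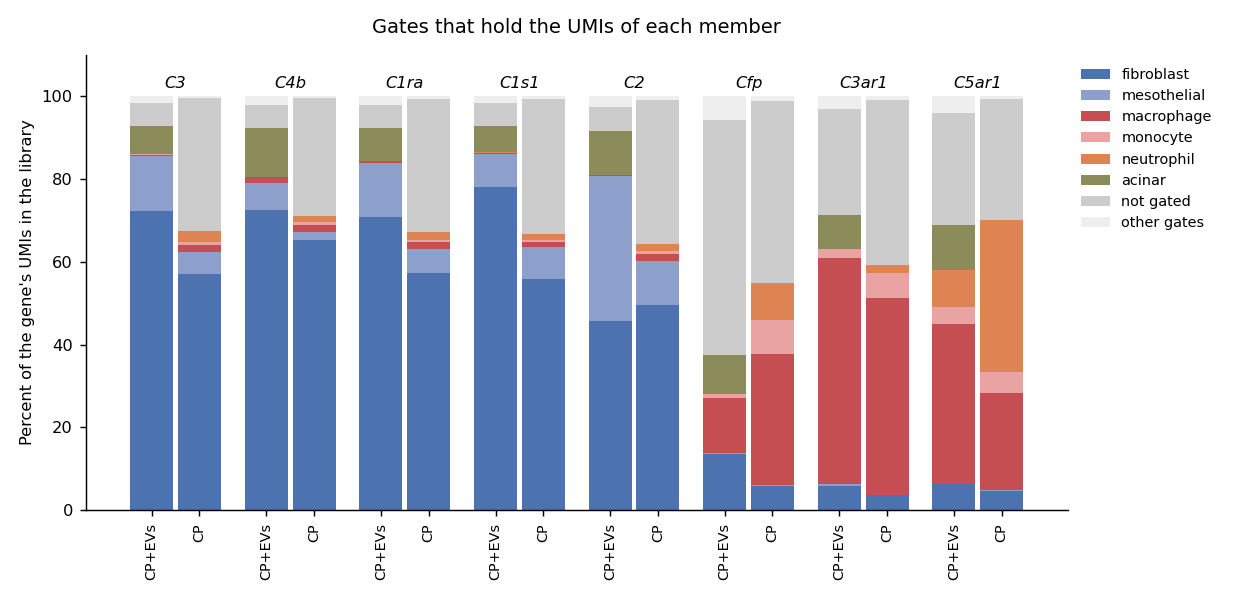
Percent of each member's UMIs held by each marker gate, with CP+EVs to the left of CP for every gene; bars add up to 100. Fibroblasts held 72.3% of C3 UMIs in CP+EVs and 57.1% in CP (14.0% and 5.67% with the gate on markers beyond free RNA), neutrophils held 9.13% of C5ar1 UMIs in CP+EVs and 36.6% in CP, and barcodes in no gate held 56.7% and 43.9% of Cfp UMIs.

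Cfb, factor B of the alternative convertase (chr17:34856374-34862518), was almost not counted. It had 3 UMIs in the CP+EVs library and 20 in the CP library, or 0.0779 and 0.389 CPM. Of these, 2 and 9 UMIs lay in fibroblasts and 1 and 5 in mesothelial barcodes, in CP+EVs and CP, and the highest level was 5.01 CPM (1.63 to 11.7) in CP mesothelial barcodes. Macrophages held 0 Cfb UMIs in both libraries, which, taken as up to 3 counts per library, allows up to 3.28 CPM in CP+EVs and 0.457 CPM in CP. Of the 2825 exonic bases of Cfb, 2246 (79.5%) are shared on the same strand with the readthrough model Gm20547, which spans Cfb and C2 and had 0 UMIs. Counters that set aside reads shared by genes would lose such reads, and whether this happened here was not tested. The level of Cfb is for that reason not a measure of its absence, and it was not measured in any gate by the rule above. Cfd, the protease that activates factor B, had 0 UMIs in both libraries, and whether the authors' counting could capture it was not tested.

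Cfp, properdin (chrX:20925454-20931555), was a macrophage gene. It stood at 639 CPM (588 to 693) in CP+EVs macrophages and 621 CPM (602 to 641) in CP ones, a ratio of 1.03 (0.941 to 1.12). In the monocyte gate it stood at 169.9 CPM (123 to 229) in CP+EVs and 474 CPM (447 to 504) in CP, a ratio of 0.358 (0.258 to 0.486). The neutrophil gate held 134 CPM from 6 UMIs in CP+EVs and 209.9 CPM in CP, and the T gate 39.2 and 41.9 CPM. Under this gate macrophages were thus equal within counting error, and monocytes were lower in CP+EVs. The gates account for only part of this gene: barcodes in no gate held 56.7% of Cfp UMIs in CP+EVs, at 349 CPM, and 43.9% in CP, at 289 CPM. With a gate on markers beyond free RNA the macrophage gate took 281 CP+EVs and 1410 CP barcodes. These held 34.1% and 42.9% of Cfp UMIs. Cfp then stood at 712 CPM (677 to 749) in CP+EVs and 602 CPM (586 to 618) in CP, intervals that do not overlap.

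C3ar1, the C3a receptor (chr6:122847138-122856161), was highest in macrophages among the 6 compared gates. It stood at 411 CPM (371 to 455) in CP+EVs macrophages and 768 CPM (747 to 790.0) in CP ones, a ratio of 0.535 (0.481 to 0.594), just short of 2-fold lower. With the gate on markers beyond free RNA, which took more macrophages, it stood at 229 and 725 CPM, a log2 ratio of -1.66, and with a margin of 1 marker the log2 ratio was -1.44, both past 2-fold. In the monocyte gate it stood at 63.2 CPM (36.1 to 103) from 16 UMIs in CP+EVs and 288 CPM (267 to 311) in CP. The 16 UMIs lay in 3 of 56 barcodes, and without the barcodes found in both libraries the log2 ratio was -3.26, against -2.15. Neutrophils held 0 UMIs in CP+EVs, which, taken as up to 3 counts, allows up to 67.0 CPM, and 38.3 CPM (33.3 to 43.8) in CP. The T gate held 1.59 CPM in CP+EVs and 24.7 CPM in CP, so the CP neutrophil level exceeded its background by less than 2-fold. Macrophages held 54.6% of C3ar1 UMIs in CP+EVs and 47.4% in CP. The small eosinophil gate of CP, with 11 barcodes, held 797 CPM from 12 UMIs (412 to 1392).

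C5ar1, the C5a receptor (chr7:16246743-16259540), was highest in neutrophils in both libraries. It stood at 1519 CPM (1179.9 to 1926) from 68 UMIs of 22 CP+EVs neutrophils and 1560.5 CPM (1528 to 1594) in CP neutrophils. In macrophages it stood at 314 CPM (279 to 352) in CP+EVs and 835 CPM (813 to 858) in CP, a ratio of 0.376 (0.333 to 0.423). With the gate on markers beyond free RNA it stood at 182 and 810.2 CPM in macrophages, a log2 ratio of -2.15, against -1.41. In monocytes it stood at 119 CPM (80.0 to 169) in CP+EVs and 530.2 CPM (501 to 561) in CP, a ratio of 0.224 (0.150 to 0.321). Both macrophages and monocytes were thus more than 2-fold lower in CP+EVs. Over the whole library C5ar1 stood at 19.4 CPM in CP+EVs and 454 CPM in CP, and C3ar1 at 17.9 and 207 CPM, libraries that held 22 and 2830 neutrophil and 167 and 1061 macrophage barcodes.

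**Figure D3:**
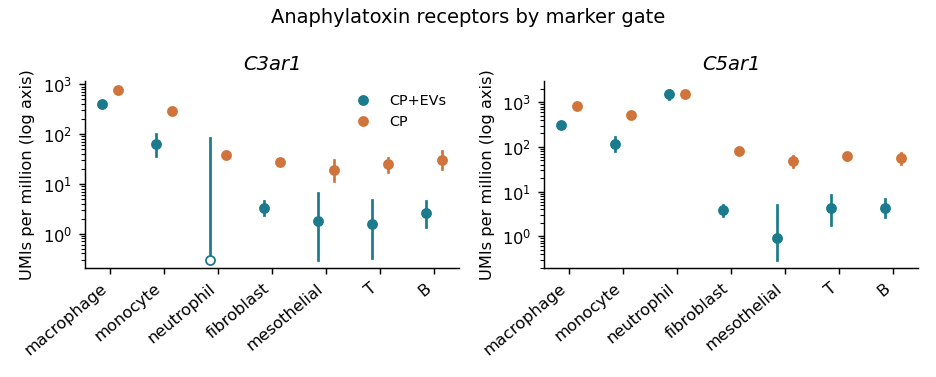
Levels of C3ar1 and C5ar1 in 7 marker gates, in CPM on a log axis, with CP+EVs to the left of CP. Points are the level of 1 library, bars are exact Poisson 95% intervals, and the open point marks 0 UMIs. C5ar1 was near 1519 and 1560.5 CPM in the neutrophils of both libraries, while the non-myeloid gates of CP+EVs lay below those of CP.

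Levels of the receptors in non-myeloid gates followed the whole-library level. In fibroblasts C5ar1 stood at 3.83 CPM in CP+EVs and 79.9 CPM in CP, which is 19.8% and 17.6% of the library level. C3ar1 in fibroblasts stood at 3.34 and 27.7 CPM, which is 18.7% and 13.4% of it. The T gate held C5ar1 at 21.9% and 13.6% of the library level. Neutrophil markers behaved alike: in fibroblasts the 8 genes summed to 37.6 CPM in CP+EVs and 1098 CPM in CP, 21.5% and 16.3% of their library level, with none at 0. The receptor differences in fibroblast, mesothelial, T and B gates stand at background and are given as values only. In CP+EVs macrophages and monocytes neutrophil markers summed to 99.5 and 241 CPM, and in CP macrophages and monocytes to 964 and 1646 CPM; their part in the lower C5ar1 of these gates was not tested.

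Per barcode, the receptors were found together in fewer CP+EVs macrophages. Thinned to 1000 UMIs, C3ar1 was detected in 23.1% of CP+EVs macrophages (16.8 to 30.4, 160 barcodes) and 48.2% of CP ones (44.9 to 51.5, 894 barcodes). C5ar1 was detected in 23.1% (16.8 to 30.4) and 52.8% (49.5 to 56.1), and 7 CP+EVs and 167 CP macrophages were left out as shallower. UMIs of both receptors lay in 10% of CP+EVs and 26.1% of CP macrophages, and of neither in 63.8% and 25.1%. Without thinning both were found in 37.1% and 68.4%. Neutrophils had C5ar1 alone in 70% of 20 CP+EVs barcodes and 70.6% of 2141 CP barcodes. The T gate gave 0.219% and 4.93% for C5ar1, and for C3ar1 0% (0 to 0.806) and 2.71%. Median depths of the thinned barcodes had been 4842 and 6524 UMIs in macrophages, 1543 and 1975 in neutrophils and 3596 and 3336 in T barcodes, in CP+EVs and CP.

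**Figure D4:**
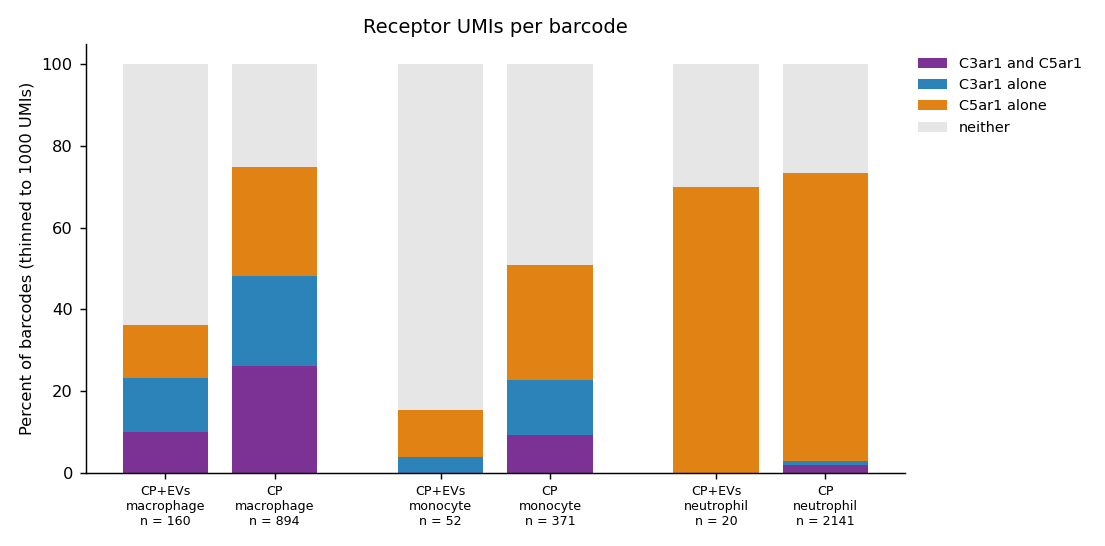
Percent of barcodes with UMIs of both receptors, of C3ar1 alone, of C5ar1 alone or of neither, after thinning each barcode to 1000 UMIs, with CP+EVs to the left of CP. The bars show 160 and 894 macrophages, 52 and 371 monocytes and 20 and 2141 neutrophils. Both receptors were found in 10% of CP+EVs and 26.1% of CP macrophages.

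The spread among barcodes with at least 1000 UMIs shows how the members were distributed within a gate. C3ar1 in macrophages had a median of 176 CPM and a 90th percentile of 1125 CPM in CP+EVs, and 670.2 and 1538 CPM in CP. C5ar1 in macrophages had a median of 0 and a 90th percentile of 1104 CPM in CP+EVs, and 739.7 and 1659 CPM in CP. C3 in mesothelial barcodes ran between 10th and 90th percentiles of 4858 and 11314 CPM in CP+EVs and of 1956 and 8273 CPM in CP. C3 in fibroblasts ran between 587 and 7554 CPM in CP+EVs and between 670.2 and 7302 CPM in CP. C4b in fibroblasts had a median of 285 CPM in CP+EVs and 912 CPM in CP, with 90th percentiles of 2139.8 and 2578 CPM.

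Within fibroblasts C3, C4b and C1s1 were higher in the adventitial sub-gate than in the remodelling one in both libraries. C1ra was higher there in CP, at 1359 against 584 CPM. In CP+EVs it stood at 1291 CPM in adventitial and 1051 CPM (826 to 1320) in remodelling fibroblasts, an interval that covers the adventitial level. C3 stood at 3979.5 CPM in CP+EVs and 4219.6 CPM in CP adventitial fibroblasts, and at 1648 and 1853 CPM in remodelling ones, of which CP+EVs had only 12 barcodes. C4b stood at 789.6 and 1402 CPM in adventitial and 114 and 588 CPM in remodelling fibroblasts of CP+EVs and CP. C1s1 stood at 1757 and 1361 CPM in adventitial and 1293 and 719.8 CPM in remodelling fibroblasts. C2 was likewise higher in adventitial fibroblasts in CP, at 147 CPM (139 to 154) against 91.0 CPM (73.2 to 112). In CP+EVs C2 stood at 118 CPM in adventitial fibroblasts. In remodelling ones it stood at 171 CPM (88.1 to 298), from 12 UMIs, an interval that covers the adventitial level. Of the components measured in the sub-gates, C1s1 was higher in CP+EVs within adventitial and within the remaining fibroblasts, with log2 ratios of 0.37 and 0.22.

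Counts of members past 2-fold were read against the same count over all measured genes. In fibroblasts 8 members were measured, 0 were 2-fold higher in CP+EVs (background 4.66% of 6819 genes) and 2 were lower (background 5.6%), the receptors at background level. In the mesothelial gate 7 were measured, 1 was higher (C2; background 7.66% of 7312 genes) and 2 were lower (Cfp and C5ar1; background 8.48%), with Cfp, at 12.8 and 33.1 CPM, below the T gate in both libraries. In macrophages 7 were measured, 1 was higher (C4b; background 7.3% of 6440 genes) and 1 was lower (C5ar1; background 8.94%). In monocytes 7 were measured, 0 were higher (background 7.92% of 6364 genes) and 4 were lower, C4b, Cfp, C3ar1 and C5ar1 (background 8.78%). With a margin of 1 marker the monocyte log2 ratios of C4b and Cfp were -0.89 and -0.81, so these calls end, and the C4b call also ends over barcodes with at least 1000 UMIs. The CP+EVs monocyte level of C4b, 23.7 CPM, was below the 36.0 CPM of the T gate. In T barcodes 7 were measured, 0 were higher (background 1.89% of 6815 genes) and the receptors were lower (background 1.89%). In B barcodes 7 were measured, 0 were higher (background 7.65% of 6863 genes) and 3, Cfp and the receptors, were lower (background 6.63%).

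The median log2 ratio over members measured was -0.25 in fibroblasts, 0.61 in the mesothelial gate, 0.0052 in macrophages and -1.17 in monocytes, beside 0.011, 0.0024, -0.19 and -0.016 over all genes measured in these gates. These medians include members at background, such as the receptors in fibroblasts, with log2 ratios of -3.03 for C3ar1 and -4.37 for C5ar1. The monocyte median is the value of C4b, whose CP+EVs level was below that of the T gate. Scaled by the median of ratios, C3ar1 in macrophages had a log2 ratio of -0.70 and C5ar1 of -1.21. The components C1ra, C2, C3 and C4b were higher and C1s1 and Cfp lower in CP+EVs in the mesothelial gate. In monocytes both receptors, Cfp and C4b were lower, as they were in fibroblast and B barcodes by other amounts. The CP+EVs monocyte levels rest on few UMIs, 6 for C4b, 43 for Cfp, 16 for C3ar1 and 30 for C5ar1.

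**Figure D5:**
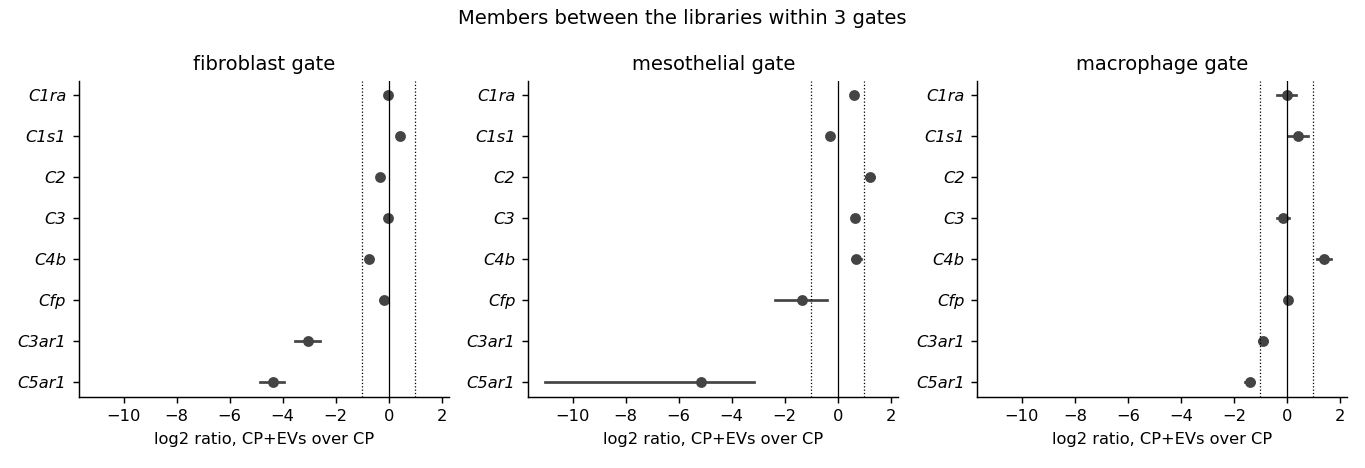
Log2 ratios of the members, CP+EVs over CP, in the fibroblast, mesothelial and macrophage gates; bars are exact conditional 95% intervals for counting error, dotted lines mark 2-fold, and members not measured have no point. C2 in the mesothelial gate (1.22) and C4b in the macrophage gate (1.40) lie above 2-fold, and C5ar1 in macrophages (-1.41) below it.

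The other genes of the pathway were taken from a list of 46, of which 45 were in the files, and 15, 12, 13 and 14 were measured in fibroblasts, mesothelial barcodes, macrophages and monocytes. In fibroblasts 1 was at least 2-fold higher in CP+EVs and 2 lower (background 4.66% and 5.6%), in the mesothelial gate 0 and 3 (7.66% and 8.48%), in macrophages 3 and 1 (7.3% and 8.94%), and in monocytes 2 and 3 (7.92% and 8.78%). The lower genes were C1qc and Cd93 in fibroblasts and C1qb, C1qc and Itgam in the mesothelial gate. Whether their UMIs in these stromal gates were background was not tested. Most initiators of the lectin pathway and most terminal components were nearly uncounted, with 0 UMIs of Mbl1, 34 of Masp1 and 18 of Hc, the C5 gene, over both libraries.

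Among initiators, C1qa, C1qb and C1qc encode the C1q chains and are macrophage genes. C1qa stood at 392 CPM in CP+EVs macrophages and 132 CPM in CP ones, a log2 ratio of 1.57. C1qb stood at 4319 and 2292 CPM, and C1qc at 2279 and 1179 CPM, with log2 ratios of 0.91 and 0.95. In monocytes all C1q chains were lower, with C1qb at 158 CPM in CP+EVs and 618 CPM in CP. In macrophages the C1q chains and C3ar1 or C5ar1 thus differed in opposite directions between the libraries. Colec12, a scavenger receptor with a collectin domain, stood at 388 CPM in CP+EVs and 208 CPM in CP mesothelial barcodes.

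C7, a component of the membrane attack complex, was the terminal gene measured and differed most among the listed genes in fibroblasts. It stood at 82.2 CPM (77.2 to 87.5) in CP+EVs fibroblasts and 14.8 CPM (12.8 to 17.0) in CP ones, a ratio of 5.55 (4.77 to 6.49). In adventitial fibroblasts the log2 ratio of C7 was 2.13 and in the remaining ones 3.36, so the difference stood in both.

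Among fluid-phase regulators, Serping1, the C1 inhibitor, was more abundant than any member in fibroblasts, at 4442 CPM in CP+EVs and 4596 CPM in CP. Vtn, vitronectin, stood at 18.4 and 27.9 CPM in fibroblasts in CP+EVs and CP, a log2 ratio of -0.61. In the mesothelial gate Serping1 stood at 4977 CPM in CP+EVs and 3260.2 CPM in CP, and Clu, clusterin, at 1219 and 892 CPM. Both were higher in CP+EVs mesothelial barcodes by less than 2-fold, as C3 and C1ra were. In macrophages Clu stood at 76.6 CPM in CP+EVs and 20.4 CPM in CP, a log2 ratio of 1.91, and Serping1 had a log2 ratio of 0.38. Clu was also at least 2-fold higher in CP+EVs in the monocyte, T and B gates. The difference was thus not particular to macrophages, and the part of background in it was not tested.

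Among membrane regulators, Cd55, which dissociates convertases, stood at 546 CPM in CP+EVs and 362 CPM in CP fibroblasts, a ratio of 1.51 (1.45 to 1.57). In the mesothelial gate it stood at 174 and 337 CPM, a ratio of 0.517 (0.431 to 0.620), so the direction was the opposite. Cd59a, which blocks the membrane attack complex, stood at 74.3 and 47.1 CPM in that gate, and Cr1l (Crry), the rodent regulator of C3 activation, had log2 ratios of -0.0028 in fibroblasts, 0.28 in the mesothelial gate and -0.32 in macrophages.

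Among the other receptors, Itgax, the alpha chain of complement receptor 4, stood at 110.5 CPM (89.97 to 134) in CP+EVs macrophages and 20.7 CPM (17.4 to 24.5) in CP ones. Cd93, once described as a C1q receptor, stood at 188 and 741 CPM, and Itgam, the alpha chain of complement receptor 3, at 803 and 1353 CPM. Itgax was thus more than 2-fold higher and Cd93 more than 2-fold lower in CP+EVs macrophages. C5ar2, the second C5a receptor, stood at 20.8 CPM from 19 UMIs in CP+EVs macrophages and 36.1 CPM in CP ones, lower like C5ar1, and in neutrophils at 67.0 CPM from 3 UMIs in CP+EVs and 101 CPM in CP.

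The genes whose levels followed the members most closely were ranked by Pearson r of log2(CPM + 1) over the 16 gate-by-library sums with at least 50 barcodes, among 4745 genes with at least 100 CPM in 1 of them. The points share a library, its free RNA and the gates, so r is a description. For C3 the leading genes were C1ra (0.973), Slc4a4 (0.973), C1s1 (0.971), Rarres2 (0.971), Serping1 (0.967). For C1s1 they were C1ra (0.991), Serping1 (0.988), Dcn (0.986), Mgp (0.982), Gabra3 (0.980), of which Dcn is a marker that set the fibroblast gate. For C3ar1 they included Aif1 (0.962), Fcgr1 (0.944), Cfp (0.934), Msr1 (0.930), of which Fcgr1 is a marker that set the macrophage gate. For C5ar1 they were Fpr1 (0.973), Cd300ld (0.970), Nlrp3 (0.966), Clec4d (0.966), Wfdc17 (0.963). Cfb was under 100 CPM in every gate and was not ranked.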

How the data were processed

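Single cells of 2 mouse pancreas libraries were captured on BD Rhapsody, per the labels. The values deposited by the authors are whole UMI counts for each gene in each barcode, with no normalization. The genome build mm10 and the tools CASAVA 1.8, UMI-tools and Seurat are named, without roles, per the submitters' processing notes. The use of an aligner, annotation and cell-calling rule was not given in the sources used here. No barcode had fewer than 501 UMIs. The 9 members, the marker lists and the list of 46 other complement genes were chosen with earlier results of these data known. Of 31253 listed IDs, 31107 matched GENCODE vM21, and of 43 repeated symbols the entry with most UMIs was used. Barcodes under 200 genes or over 25% mitochondrial UMIs were removed, leaving 8799 of CP+EVs and 13409 of CP. Gates used 18 lists of 8 markers: at least 3 with a UMI, 2 more than every unrelated list and 1 more than related lists. The mesothelial gate was exempt from the margin over the fibroblast list. Barcodes with 3 mesothelial markers were not called fibroblasts, and those with 20% of UMIs in 12 acinar genes were acinar. No doublet caller was run, so mixed barcodes are kept out by the margin alone, which the mesothelial gate lacks against fibroblasts. UMIs were summed per gate and library. Levels have exact Poisson intervals, ratios exact conditional ones, and shares Clopper-Pearson ones, all at 95% and for counting error only. Log2 ratios have 0.5 counts added to each sum. Groups were taken from the treatment labels, and no p-value was computed. Per role, up to 3 other complement genes with the largest ratios were named, and up to 5 genes most like a member. Some genes that these rules take are not reported here. Shares were computed after thinning to 1000 UMIs, leaving out shallower barcodes. Promoter motif forms were set after an earlier search of the same promoters, in which C3ar1 matched another NF-kB form. Ratios and intervals were tested on simulated counts. Alternatives covered scaling, gates, filters, thresholds and shared barcodes; the gate beyond free RNA, which subtracts the markers expected from free RNA at 15% of the library level, and the setting without shared barcodes were chosen after seeing the data. Python 3.11.15, numpy 2.4.6, scipy 1.17.1, pandas 2.3.3 and matplotlib 3.10.9 were used.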

Additional observations from a re-analysis of the deposited data

Results flagged for a closer look

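Several members stood on opposite sides of equality in different gates, with counting intervals that exclude a ratio of 1 in each; the differences between gates were not tested, because each library is 1 sample. C1s1 had a log2 ratio of CP+EVs over CP of 0.42 in fibroblasts and 0.42 in macrophages, and of -0.30 in the mesothelial gate. C2 had a log2 ratio of -0.32 in fibroblasts and 1.22 in the mesothelial gate. C3 had a log2 ratio of -0.042 in fibroblasts and 0.64 in the mesothelial gate. C4b had a log2 ratio of -0.73 in fibroblasts, 0.70 in the mesothelial gate and 1.40 in macrophages. The macrophage level of C1s1, 76.6 CPM in CP+EVs and 57.4 CPM in CP, is near the T gate background of 50.9 and 61.1 CPM. Cfp was also counted in barcodes that the comparisons do not use. In barcodes of no gate it stood at 349 CPM (336 to 363) in CP+EVs, from 2509 UMIs, and at 289 CPM (281 to 296) in CP, from 5675 UMIs.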

How the results depend on the processing

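No paired analysis was possible because each group has 1 library. Over the 10 alternatives, the log2 ratio kept its sign for C4b in fibroblasts (-0.75 to -0.64), for C1s1 in fibroblasts (0.39 to 0.50), for C2 (1.20 to 1.44) and C3 (0.63 to 0.72) in the mesothelial gate, and for C3ar1 (-1.66 to -0.70) and C5ar1 (-2.15 to -1.21) in macrophages. C3 and C1ra in fibroblasts, with values near 0, changed sign under 4 and 5 alternatives (-0.079 to 0.036 and -0.044 to 0.074), and Cfp in fibroblasts ran over -1.89 to 0.33. Counts of members past 2-fold moved, among others, as follows, and the cause was not tested. The share of all measured genes past the cutoff is not given for these settings. The counts therefore show only how the calls moved, not whether they are unusual. With a margin of 1 marker and with the gate beyond free RNA, macrophages had 0 members higher, since C4b was short of 2-fold, and 2 lower, since C3ar1 passed it. At 1.5-fold, by construction, 4 members were higher in the mesothelial gate and 2 lower in macrophages. C4b was then also counted as lower in fibroblasts and in B barcodes, with log2 ratios of -0.73 and -0.61. With no filter on low counts 4 were lower in the mesothelial gate. With a margin of 1 marker 2 were lower in monocytes, without C4b and Cfp, against 4, and with the gate beyond free RNA 6 were lower in B barcodes, against 3. Of 43 log2 ratios, 21 left their counting interval under the gate beyond free RNA, 11 under a margin of 1 marker, 10 under the mean per barcode and 5 or fewer under each other setting. Of 126 shares, 93 moved without thinning and 78 when thinned to 2000 UMIs, so shares hold only at their stated depth. Depth limits the monocyte and neutrophil gates of CP+EVs, at 56 and 22 barcodes.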

Other observations

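Acinar barcodes, nearly all from CP+EVs, also held complement UMIs. C3 stood at 479.9 CPM (466 to 494) in the 2790 acinar barcodes of CP+EVs, 28.8% of its library level, and C4b at 165 CPM (157 to 174), 49.8% of it. C3 UMIs per C1s1 UMI were 2.58 (2.44 to 2.73) in these acinar barcodes and 2.26 (2.22 to 2.29) in CP+EVs fibroblasts, and C4b UMIs per C1s1 UMI were 0.888 (0.827 to 0.952) and 0.450 (0.439 to 0.462). The proportion of C4b was thus higher in acinar barcodes than in fibroblasts or, at 0.403, in mesothelial barcodes. In the T gate of CP+EVs C4b UMIs per C1s1 UMI were 0.708 (0.511 to 0.977), an interval that overlaps that of acinar barcodes. The 92 endothelial barcodes of CP+EVs held C3 at 125 CPM and C4b at 23.9 CPM, near the 131 and 36.0 CPM of the T gate.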
